A study of Mus musculus with 4 samples.

Results

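The genes described here are the histone genes of the Hist1, Hist2, Hist3 and Hist4 clusters, the genes that supply most histone protein during DNA replication. They were taken as all rows of the deposited table whose symbol begins with Hist, a digit from 1 to 4 and h, which gave 65 of 25050 genes. They code for the linker histone H1 (6 genes) and for the core histones H2A (18), H2B (17), H3 (11) and H4 (13). By cluster, 54 lie in Hist1 on chromosome 13, 7 in Hist2 on chromosome 3, 3 in Hist3 on chromosome 11 and 1, Hist4h4, on chromosome 6. GENCODE M21 held 63 of the 65 identifiers, 60 as protein-coding genes and 3 as pseudogenes (Hist1h2aj, Hist1h2al and Hist3h2bb-ps), and the identifiers of Hist1h2bh and Hist1h2bm were not matched.

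RNA was sequenced from HT-22, an immortalised mouse line labelled as hippocampal neurons, in 2 groups of 2 libraries, all at passages 21 to 24. One group is wild type and the other overexpresses Nsmce1, which codes for a subunit, with a RING-like domain, of the SMC5/6 complex of chromosome maintenance. The series text also speaks of an inducible Nsmce1 and of uninduced cells as the controls, so whether the controls carry the transgene cannot be told from the labels, which name no promoter or inducer. The groups were compared to find which transcripts differ with Nsmce1 overexpression. The labels do not say that libraries were grown as separate cultures, and p-values here therefore reflect the spread among these 4 samples, which may be technical.

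Histone cluster genes are short and have no introns as a rule, and cells transcribe them mainly in S phase, when newly made DNA has to be packed into nucleosomes. Their main messenger RNAs carry no poly(A) tail. They end a few bases after a conserved stem-loop that the stem-loop binding protein holds, and the U7 small nuclear RNP directs the cut. Many members can also end further downstream at an ordinary poly(A) site, most often in cells that are differentiating or have left the cycle. A library kit such as the TruSeq RNA kit named in the labels is designed to enrich RNA with a poly(A) tail. The part of that step in the low histone reads here was not tested.

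The stem-loop is shown first because it sets these messages apart from other mRNAs. A search of the GENCODE transcripts for 2 forms of stem, GGCTCT or GGCCCT with its complement after a loop of 4 bases starting with TTT, found it in 39 of the 63 matched members. The pattern was narrowed to these forms after a looser look at the transcripts. Each line gives 1 member for each of the 5 variants found, 5′ to 3′ as DNA letters, with the bases of the stem in capitals and 7 bases on either side.
Hist1h1c: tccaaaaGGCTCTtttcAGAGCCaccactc
Hist1h3c: aaaaaaaGGCTCTtttaAGAGCCacctaag
Hist2h2ac: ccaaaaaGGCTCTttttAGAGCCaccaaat
Hist1h4d: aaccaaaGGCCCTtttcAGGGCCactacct
Hist1h4i: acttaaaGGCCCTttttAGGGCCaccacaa

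The variant of Hist1h1c was the most frequent, with 23 members of classes H1 (3), H2A (9), H2B (6) and H3 (5). The variant of Hist1h3c was found in 6 members, and that of Hist2h2ac in that gene alone. The 2 variants with a GGCCCT stem, those of Hist1h4d (7 members) and Hist1h4i (2 members), occurred in H4 genes and in no other class. In 19 of the 39 members the annotated transcript ended within 100 bases of the stem-loop, and in 20 it ran on for more than 100 bases. The other 24 matched members comprise 10 whose gene model ends with the coding sequence, so that no stem-loop could be found, and 14 others with none of these letters. Those 14 are the pseudogenes Hist1h2aj, Hist1h2al and Hist3h2bb-ps, which have no annotated coding sequence, and members with a longer transcript.

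Many H2A and H2B genes stand head to head and share the DNA between their start sites. Among the matched members there were 11 such pairs of opposite strand, each of 1 H2A and 1 H2B gene, with 173 to 302 bases between the annotated starts. The upstream DNA of Hist2h2ac and of Hist1h2bg is shown because each faces a member described below, Hist2h2be and Hist1h2ae, and that of Hist1h1c because this gene had the most reads. These 3 were picked after the values and the matches had been seen. The sequences come from RefSeq (GRCm38.p6), 5′ to 3′ on the gene's own strand, and stop at the base before the start site. Capitals mark, on either strand, the octamer ATTTGCAT known from H2B promoters, the letters CCAAT and the letters TATAAA.
Hist2h2ac, chr3:96220881-96221130, minus strand: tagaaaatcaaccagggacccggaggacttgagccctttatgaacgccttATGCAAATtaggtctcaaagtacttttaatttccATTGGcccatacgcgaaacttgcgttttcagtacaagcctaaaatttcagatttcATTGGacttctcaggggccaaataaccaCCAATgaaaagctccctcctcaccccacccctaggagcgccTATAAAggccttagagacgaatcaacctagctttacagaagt
Hist1h2bg, chr13:23571150-23571399, plus strand: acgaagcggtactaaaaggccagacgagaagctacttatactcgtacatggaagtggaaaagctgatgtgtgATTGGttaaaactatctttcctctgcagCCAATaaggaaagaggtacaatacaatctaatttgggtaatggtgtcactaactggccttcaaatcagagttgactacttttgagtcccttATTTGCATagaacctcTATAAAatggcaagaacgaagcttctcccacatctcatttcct
Hist1h1c, chr13:23738557-23738806, plus strand: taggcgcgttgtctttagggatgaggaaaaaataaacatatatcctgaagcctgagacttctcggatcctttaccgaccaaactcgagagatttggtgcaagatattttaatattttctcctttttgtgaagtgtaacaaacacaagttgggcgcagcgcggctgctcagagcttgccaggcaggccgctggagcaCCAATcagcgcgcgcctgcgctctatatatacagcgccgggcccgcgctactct

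RefSeq windows of 300 bases were matched for 56 of the 65 members. The octamer was present in 11 of these 56 windows, 6 of 15 of H2A genes and 5 of 14 of H2B genes, and in none of the 27 windows of H1, H3 and H4 genes. The octamer is present in 1.74% of all 32851 windows of that length in the table. The starts of a head-to-head pair lie 173 to 302 bases apart. A match between them can thus be counted for both genes, and the H2A and H2B counts are not separate. CCAAT was found in 47 of the 56, in every window of the H1, H2A, H2B and H3 genes and in 3 of the 12 of H4 genes, against 37.4% of all windows. TATAAA was found in 33 of the 56, against 13.6% of all windows. These are matches of letters and not measured sites, and the motifs do not overlap each other in the 3 sequences shown.

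The overexpressed gene was read first as a check of the labels. Normalised reads of Nsmce1 were 1108 and 1206 without and 17851 and 16525 with overexpression, 14.8-fold higher (log2 fold change 3.89, SE 0.0856, limma adjusted p = 9.06e-05). Libraries held 25787452 to 44602989 whole reads, and 1 read was worth 0.730 to 1.26 normalised reads. Of 15 neuron markers looked for, 9 were in the table and 3 were tested, led by Tubb3 with 446 to 622 normalised reads. None was called, with 1 above 0 (log2 fold change 0.64) and 2 below. Gap43, a growth-cone protein, had 23.9 and 44.2 normalised reads in wild type, against 7 and 0 with overexpression (log2 fold change -3.57, SE 1.04, limma adjusted p = 0.460). Syt1, Slc17a7, Prox1, Nefm and Dcx were each below a mean of 4 normalised reads, so these neuron markers were near absent. The fibroblast collagens Col1a1 and Col3a1 averaged 74620 and 66831. All 5 fibroblast markers had a log2 fold change below 0 (median -0.13) and none passed the test. Of the other marker lists, 2 astrocyte, 3 oligodendrocyte, 3 microglia and leukocyte and 1 endothelial marker were tested and none was called. Some of these did not overlap between the groups. Both tested astrocyte markers had an unadjusted p under 0.05 and lay on opposite sides of 0, Aldh1l1 with 57.8 and 65.3 against 14 and 12.4 normalised reads (log2 fold change -2.14, limma adjusted p = 0.118) and the glutamate transporter gene Slc1a3 with 3302 and 2956 against 4537 and 4245 (0.49, adjusted p = 0.181). Of the 3 tested microglia and leukocyte markers, 1 was above 0 with both overexpressing libraries higher (log2 fold change 0.54), and 2 were below 0. The microglial marker Tmem119, 1 of these 2, had 2184 and 1830 against 1587 and 1494 (-0.38, limma adjusted p = 0.465). Summed over each list, astrocyte markers had 3368 and 3021 normalised reads in wild type, against 4556 and 4261 with overexpression. Microglia and leukocyte markers had 2333 and 1970, against 1784 and 1635. Slc1a3 and Tmem119 made up most of these sums. The part of any of these in the histone values was not tested.

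Histone cluster genes were a very small part of every library. All 65 together took 1164 and 1584 reads of the wild type libraries and 1476 and 1725 reads of the overexpressing ones. That is 0.00451% (95% exact binomial interval 0.00426% to 0.00478%) and 0.00511% (0.00486% to 0.00537%) of the reads in wild type cells. In overexpressing cells it is 0.00454% (0.00431% to 0.00478%) and 0.00387% (0.00369% to 0.00405%). The second wild type library had the highest share and the second overexpressing library the lowest, while the first libraries of both groups had almost the same share, so the shares of the 2 groups overlap. These intervals cover counting error only. In bulk RNA, fewer cells in S phase and less histone RNA per cell cannot be told apart.

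Between 2 and 7 members had no read in a given library, and a count of 0 allows up to 3 reads, or 2.19 to 3.77 normalised reads depending on the library. A mean of at least 10 normalised reads over the 4 libraries was asked for before testing, and 44 of the 65 members passed. Just inside were Hist1h3a (10.3), Hist1h1b (10.5) and Hist1h2ap (10.6), and just outside Hist1h4a (9.50), Hist1h1d (9.05) and Hist2h2ac (8.04). The 6 members with at least 50 normalised reads, Hist1h1c, Hist3h2a, Hist2h2be, Hist1h2ae, Hist1h4i and Hist1h2bc, held 36.7% of the summed normalised reads of all members. The plot of normalised reads by library shows all 65.

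**Figure D1:**
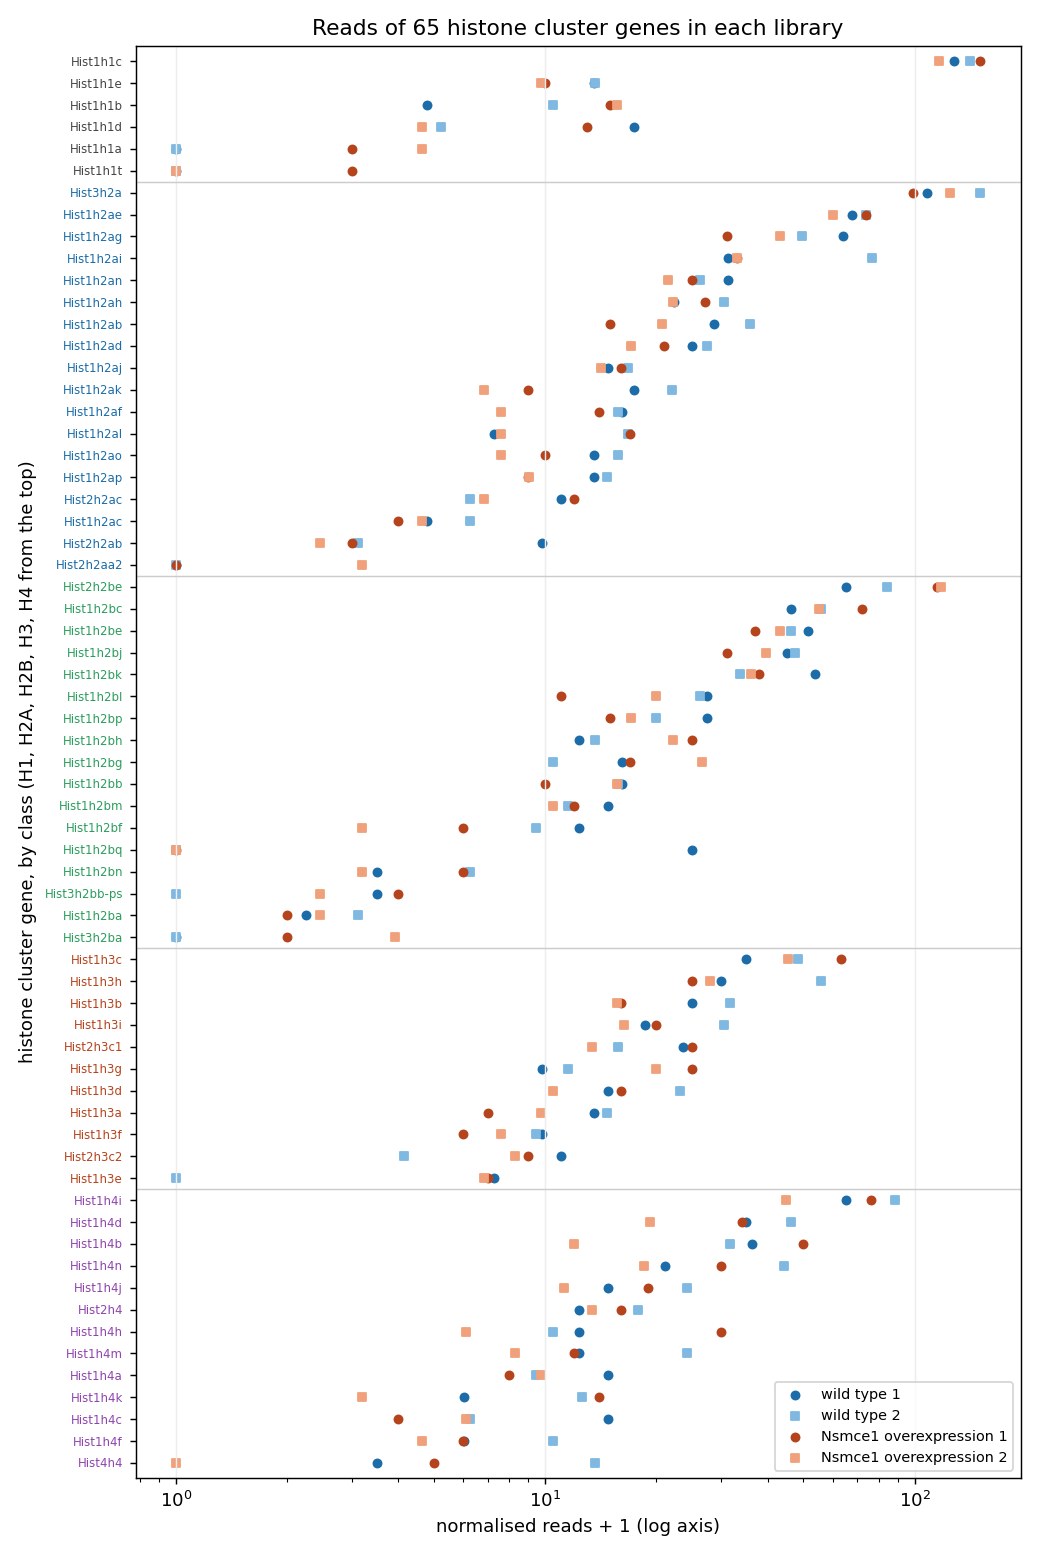
Normalised reads plus 1 (log axis) of each of the 65 histone cluster genes, ordered within the classes H1, H2A, H2B, H3 and H4, with 1 point per library (2 wild type in blue, 2 overexpressing in red). Points of the 2 groups overlap for many genes, and 6 genes have a mean of 50 normalised reads or more.

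Per length, the cluster genes were far below the replication-independent histone genes, most of which make polyadenylated mRNA throughout the cycle. Matched members had a median of 26.3 and a highest value of 108 mean normalised reads per kilobase of exon. The 11 tested replication-independent genes ranged from 29.4 (H2afy2, a macroH2A gene) to 19386 (H1f0, a linker histone gene), with a median of 1736. All but H2afy2 stood above every matched cluster gene on this scale. The 11 summed to 88859 and 91391 normalised reads in wild type cells, against 94699 and 91772 with overexpression. None of the 11 was called, with 8 above and 3 below 0 and a median log2 fold change of 0.037. Within this list H2afy2 had the smallest p, with 49 and 28.4 normalised reads against 96 and 82.5 (log2 fold change 1.23, SE 0.333, limma adjusted p = 0.413).

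Members of a class are near copies of each other, and reads can fail to tell them apart. Of all stretches of 50 bases in the transcripts of a member, the share also found in another gene's transcripts ranged from 0% to 100%. It was 0% in 4 members, Hist2h2be, Hist1h1a, Hist1h1b and Hist1h1t, and 100% in 2, Hist2h3c1 and Hist2h2aa2. The median was 1.13% in H1 genes, 73.2% in H2A, 44.1% in H2B, 60.4% in H3 and 39.5% in H4. All 18 H2A genes also overlap an annotated gene on the opposite strand. On the same strand, 5 members overlap an annotated gene. Among them are Hist3h2a, which overlaps Trim17, and Hist1h2be and Hist1h1e, which overlap each other. The sources used here do not state the authors' handling of such reads or of strand, and the split of reads among members with high sharing is uncertain. The 6 members with the most reads all had under 50% of stretches shared, as the plot of sharing against level shows.

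**Figure D2:**
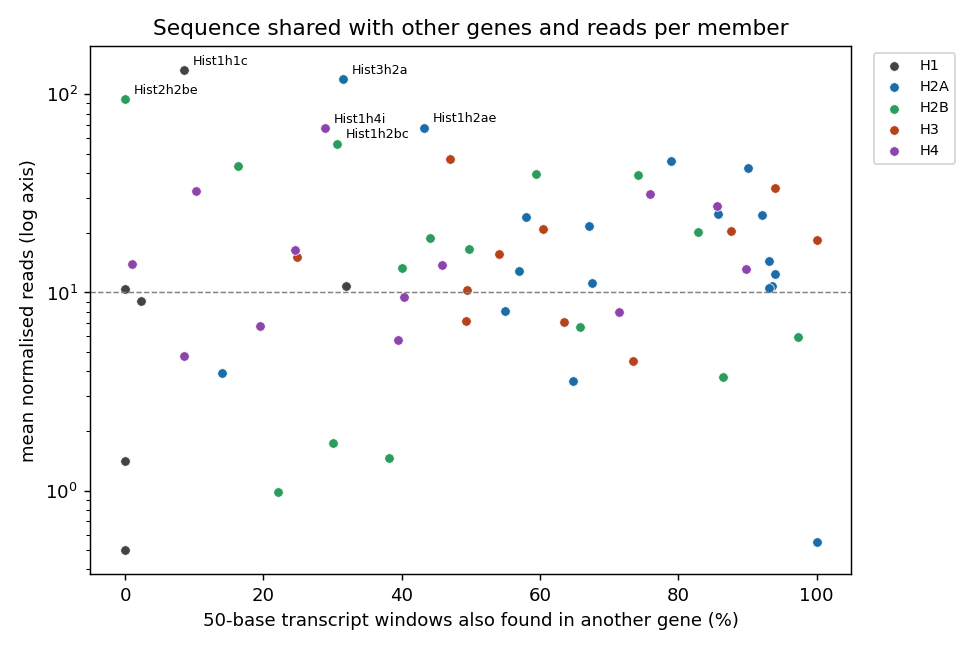
Mean normalised reads over the 4 libraries (log axis) of the 63 members matched to the annotation, against the percentage of their 50-base transcript windows that also occur in another gene, with colours for the class and a dashed line at the minimum of 10 for testing. The 6 labelled members with the most reads lie between 0% and 43.2% sharing.

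No histone cluster gene passed the test between overexpressing and wild type cells. In limma over 15540 genes with Benjamini-Hochberg adjustment at 0.05, 30 genes were called (0.193%) and 0 of the 44 tested members. At an unadjusted p under 0.05 there were 2 members, Hist2h2be above and Hist1h2ak below 0, or 4.55% of those tested against 7.92% of all genes. With limma voom on the recovered reads, 0 members were called and 3 had an unadjusted p under 0.05. In limma without a trend, where the prior for the spread is the same at every level, 0 were called and 11 had an unadjusted p under 0.05. The median standard error of a member's log2 fold change was 0.45, against 0.13 over all tested genes. Changes of more than 2-fold went uncalled, as for Hist1h3g (log2 fold change 1.07, SE 0.450) and Hist1h2ak (-1.32, SE 0.504). The test could thus miss changes well beyond 2-fold in a typical member, and the 0 calls do not show that the members are unchanged. A two-sided exact permutation test of 1 gene in this design cannot go below p = 0.333.

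The signs of the fold changes were uneven. Of the 44 tested members, 35 had a log2 fold change below 0 and 9 above it, where 48.7% of all tested genes were below 0. The members' median was -0.37, against 0.0054 over all tested genes. Among the 4231 tested genes with means in the members' range (10.3 to 133 normalised reads), 2114 were below 0 and the median was 0.00039. Both overexpressing libraries lay under both wild type libraries for 19 members (43.2%), against 18.3% of all tested genes, and above both for 5 members (11.4%), against 20.8%. Members that share sequence are not independent of each other in such counts.

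These signs rested largely on 2 libraries. The second wild type library was the highest of the 4 for 22 of the 44 tested members, against 26.0% of all tested genes. The second overexpressing library was the lowest for 22, against 23.7%. Without the second overexpressing library, 26 of 44 members were below 0 and the median was -0.19. Without the second wild type library, 28 were below 0 and the median was -0.25. Leaving out the first wild type library gave 34 below 0 (median -0.43), and leaving out the first overexpressing library gave 37 (median -0.47). In the order given, the members below 0 were 59.1%, 63.6%, 77.3% and 84.1%, against 48.7%, 49.4%, 49.6% and 47.3% of all tested genes. Relative to counting error and taken gene by gene, the 2 libraries of a group differed less in the tested members than in all tested genes. The median chi-square per gene (1 degree of freedom) was 0.734 for tested members between the wild type libraries and 0.792 between the overexpressing libraries, against 2.39 and 3.29 for all tested genes and 1.13 and 1.33 for those in the members' range of means. For the 21 untested members it was 2.16 and 0.630. Such a chi-square grows with the number of reads. The median level was 20.3 normalised reads for tested members, 30.8 for genes in their range and 718 for all tested genes. A chi-square per gene also does not show a shift common to many members. The members' total share of reads did differ between the 2 libraries of each group by more than counting error.

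**Figure D3:**
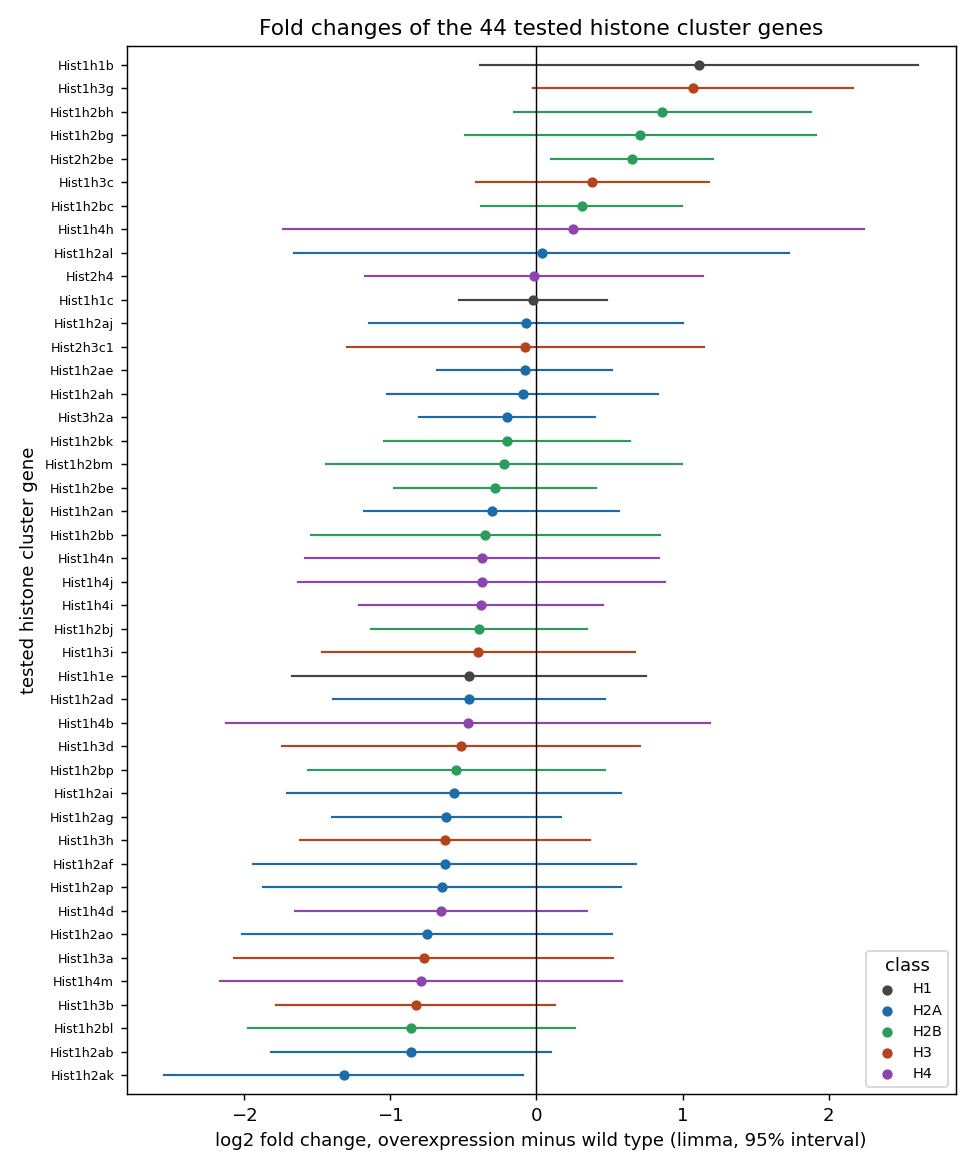
Log2 fold change (overexpression minus wild type) of the 44 tested histone cluster genes with the 95% interval from limma, ordered by value and coloured by class. The interval of 42 genes crosses 0, and those of Hist2h2be (0.10 to 1.21) and Hist1h2ak (-2.55 to -0.090) do not.

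Linker histone genes code for proteins that bind the DNA between nucleosomes. Hist1h1c, which codes for H1.2, had the most reads of all members, with 127 and 140.1 normalised reads in wild type, against 149 and 115 with overexpression (log2 fold change -0.025, SE 0.208). The groups overlap, since the overexpressing libraries are the highest and the lowest of the 4. Hist1h1b, which codes for H1.5 and shares no sequence stretch with another gene, had 3.77 and 9.48 normalised reads in wild type, against 14 and 14.6 with overexpression. Both overexpressing libraries are higher, but the wild type values come from 3 and 9 reads (log2 fold change 1.11, SE 0.614, limma adjusted p = 0.716). Hist1h1e, the third tested H1 gene, had a log2 fold change of -0.46, and the testis gene Hist1h1t had 2 reads in all 4 libraries together.

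H2A genes, which code for the core histone that pairs with H2B, were below 0 in 13 of 14 tested cases (median log2 fold change -0.51). Hist3h2a led the class with 107 and 149.5 normalised reads in wild type, against 98 and 123 with overexpression, and the groups overlap (log2 fold change -0.20, SE 0.248). Hist1h2ae had 66.6 and 72.7 against 73 and 59.1, and here the overexpressing libraries lie on either side of both wild type libraries (log2 fold change -0.082, SE 0.246). Hist1h2ag had 62.9 and 48.4 in wild type, against 30.0 and 42.3 with overexpression, lower in both (log2 fold change -0.62, SE 0.322, limma adjusted p = 0.701).

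Among the H2A genes with fewer reads, Hist1h2ak had the smallest p of those below 0. Its values were 16.3 and 21.1 normalised reads in wild type, against 8 and 5.84 with overexpression, that is 13, 20, 8 and 8 reads (log2 fold change -1.32, SE 0.504, limma adjusted p = 0.596). Both overexpressing libraries were lower, but 57.0% of its stretches occur in other genes. Hist1h2ab had 27.7 and 34.8 normalised reads against 14 and 19.7, also without overlap (log2 fold change -0.86, SE 0.393, limma adjusted p = 0.659). Hist1h2ai shows how 1 library can set a value: it had 30.2 and 75.8 in wild type, against 32 and 32.1 with overexpression, and 90.1% of its stretches are shared. Its log2 fold change of -0.57 was 0.084 without the second wild type library. Across the class, summed normalised reads were 469 and 571 in wild type, against 402 and 394 with overexpression.

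H2B genes gave values on both sides, 4 above and 7 below 0 (median log2 fold change -0.22). Hist2h2be, which codes for an H2B and has no 50-base stretch in common with any other gene, had 64.1 and 83.2 normalised reads in wild type, against 114 and 117 with overexpression. Both overexpressing libraries were higher, 1.57-fold on average (log2 fold change 0.65, SE 0.228, 95% interval 0.10 to 1.21), and it did not pass the test (limma adjusted p = 0.549). Over the alternatives its log2 fold change ranged from 0.47 to 0.84 and its adjusted p from 0.413 to 0.792. It rests on 51, 79, 114 and 160 reads. The starts of Hist2h2be and Hist2h2ac lie 239 bases apart, and Hist2h2ac, too low to test, had 10.1 and 5.27 normalised reads in wild type, against 11 and 5.84 with overexpression.

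Other H2B genes differed from it in direction or in size. Hist1h2bc had 45.3 and 54.8 normalised reads in wild type, against 71 and 54 with overexpression, with overlap (log2 fold change 0.31, SE 0.281). Hist1h2be had 50.3 and 45.3 against 36 and 42.3, lower in both overexpressing libraries (log2 fold change -0.28, SE 0.285). Hist1h2bl had 26.4 and 25.3 against 10 and 19, again lower in both (log2 fold change -0.86, SE 0.459), with 82.8% of its stretches shared. Hist1h2bh went the other way, with 11.3 and 12.6 in wild type, against 24 and 21.2 with overexpression (log2 fold change 0.86, SE 0.416, limma adjusted p = 0.678).

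Head-to-head partners could be compared in the 5 pairs with both genes tested. In 4 of them the H2A and the H2B gene had a log2 fold change below 0: Hist1h2ag (-0.62) with Hist1h2bj (-0.40), Hist1h2ah (-0.094) with Hist1h2bk (-0.20), Hist1h2an (-0.31) with Hist1h2bp (-0.55), and Hist1h2ai (-0.57) with Hist1h2bl (-0.86). In the fifth, Hist1h2ae was at -0.082 and Hist1h2bg at 0.71, the latter with 15.1 and 9.48 normalised reads in wild type, against 16 and 25.5 with overexpression. Most tested members of both classes were below 0, so a shared sign is not particular to these pairs. The partners' mean levels could differ widely, as for Hist3h2a (119 normalised reads) and the pseudogene Hist3h2bb-ps (1.74), or Hist1h2bc (56.3) and Hist1h2ac (3.92).

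H3 genes, whose product carries many of the best studied histone marks, were below 0 in 6 of 8 tested cases (median log2 fold change -0.46). Hist1h3c led with 34 and 47.4 normalised reads in wild type, against 62 and 44.5 with overexpression, and the groups overlap (log2 fold change 0.38, SE 0.327). Hist1h3b had 23.9 and 30.5 against 15 and 14.6, lower in both overexpressing libraries (log2 fold change -0.83, SE 0.391, limma adjusted p = 0.673). Hist1h3g had 8.80 and 10.5 in wild type, against 24 and 19 with overexpression, higher in both (log2 fold change 1.07, SE 0.450, limma adjusted p = 0.635). Hist1h3b and Hist1h3g code for the same class of protein and share 60.4% and 54.1% of their stretches with other genes, and they lay on opposite sides of 0.

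H4 genes, which code for the most conserved core histone, were below 0 in 7 of 8 tested cases (median log2 fold change -0.38). Hist1h4i had the most reads, 64.1 and 87.4 normalised reads in wild type, against 75 and 43.8 with overexpression, with overlap (log2 fold change -0.38, SE 0.342). Hist1h4d had 34 and 45.3 against 33 and 18.2, with both overexpressing libraries lower, the first by 1 normalised read (log2 fold change -0.65, SE 0.409). Hist4h4, the only gene of its cluster, had 2.51 and 12.6 in wild type, against 4 and 0 with overexpression and was not tested. For the 13 H4 genes together the summed normalised reads were 241 and 326 in wild type, against 291 and 145 with overexpression. The class total was thus lowest in the second overexpressing library, while the first lay between the wild type libraries.

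Members were also grouped by how their annotated transcripts end. The lengths of 100 bases after the stem-loop and 50 bases for shared stretches were set after a first look at the annotation. The 15 tested members that end within 100 bases of the stem-loop had a median log2 fold change of -0.55, with 13 below 0 and 11 with both overexpressing libraries lower, an order that 18.3% of all tested genes had. The 11 that run on for more than 100 bases had a median of -0.20, with 10 below 0, 3 with both overexpressing libraries lower and 1 with both higher. The 9 with no match to the stem-loop pattern, leaving aside models that end with the coding sequence, had a median of 0.036. Of these 9, 4 were below 0, 0 had both overexpressing libraries lower and 3 had both higher, against 20.8% of all tested genes. The 9 include the pseudogenes Hist1h2aj (log2 fold change -0.070) and Hist1h2al (0.036), which have no annotated coding sequence. Among them is also Hist1h2ah, whose model of 405 bases is little longer than its coding sequence of 384. The search covered 2 forms of stem in annotated transcripts only, so a gene without a match may still have a stem-loop. The 7 whose model ends with the coding sequence were all below 0 (median -0.63), 5 with both overexpressing libraries lower. The median share of stretches held by other genes also differed between these groups of tested members, at 60.4%, 28.9%, 54.1% and 87.6% in the same order, and its part in the values was not tested. Among the 23 tested members with at least 50% of stretches shared, 21 were below 0 (median -0.47), and among the 19 with less, 13 were (median -0.20).

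**Figure D4:**
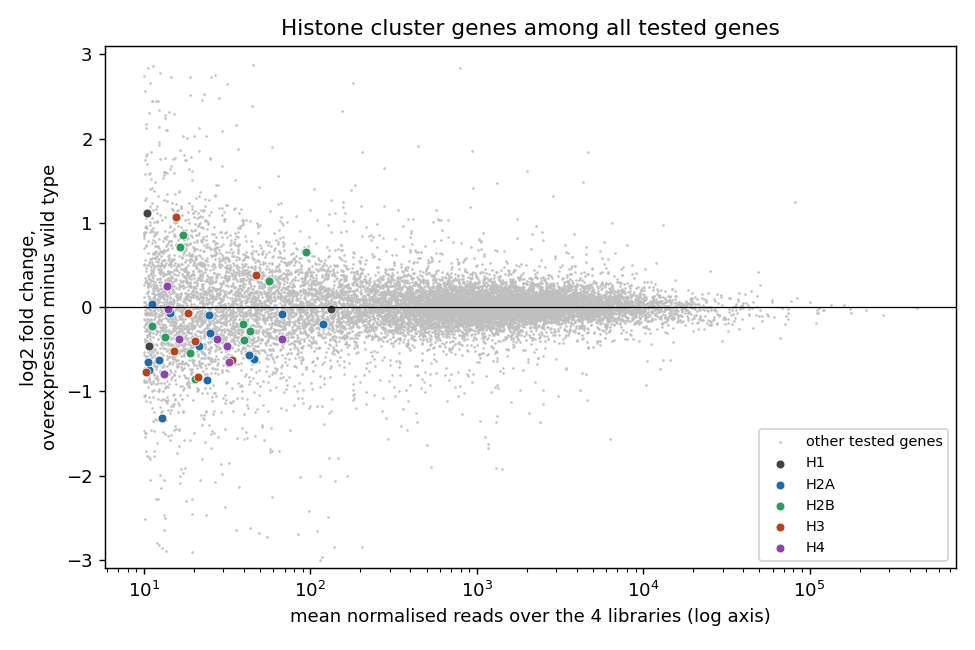
Log2 fold change (overexpression minus wild type) against mean normalised reads over the 4 libraries (log axis) for all tested genes in grey and the 44 tested histone cluster genes in colour by class. The vertical axis ends at 3 in both directions and leaves out 47 genes beyond it; the coloured points lie at the low end of the levels and mostly under 0, inside the spread of grey points.

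The genes that make, process and deposit histones were read from lists beside the members. Of 22 genes for transcription, 3′ processing and decay of histone mRNA, all were tested, 11 were above and 11 below 0, and none was called (median log2 fold change 0.0075). Lsm11, a subunit of the U7 snRNP, had 926 and 898 normalised reads in wild type, against 697 and 652 with overexpression, lower in both (log2 fold change -0.44, SE 0.103, limma adjusted p = 0.331). Mif4gd, a partner of the stem-loop binding protein in translation, had 1157 and 843 against 819 and 703 (log2 fold change -0.38), and Ncbp2, a cap-binding subunit, had 3578 and 3698 against 3920 and 4173 (log2 fold change 0.15). Slbp, the stem-loop binding protein itself, had a log2 fold change of 0.033, and Npat, the coactivator of histone gene transcription, 0.11.

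Of 23 histone chaperones and depositing factors, 1 was called. Anp32e, which removes the variant H2A.Z from chromatin, rose with overexpression from 4148 and 4441 to 7146 and 7534 normalised reads (log2 fold change 0.77, SE 0.0784, limma adjusted p = 0.0436). This call ended without trend (limma adjusted p = 0.326), without the filter on low values (0.093) and with any 1 of the 4 libraries left out (0.0517 and 0.0586 without the first and second overexpressing library, 0.267 and 0.178 without the first and second wild type library). Hira (log2 fold change 0.21) and Cabin1 (0.14), of a complex that deposits the variant H3.3, followed by p. The list had 15 genes above and 8 below 0, with a median of 0.034.

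Of 27 S phase genes, all were tested, 12 were above and 15 below 0, and none was called (median log2 fold change -0.018). The smallest p-values belonged to the helicase subunit Mcm4 (log2 fold change 0.20, limma adjusted p = 0.549) and the cyclin Ccne1 (0.30, adjusted p = 0.562), each higher in both overexpressing libraries. In all, 3 of the 27 had an unadjusted limma p under 0.05, as did 7.92% of all tested genes. Log2 fold changes in the list ran from -0.75 to 0.30. The members' median of -0.37 stood beside S phase genes with a median near 0. Summed over the list, S phase genes had 165643 and 168710 normalised reads in wild type, against 164958 and 169131 with overexpression, with the second library slightly higher in each group.

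Small RNAs that carry no poly(A) tail were read beside the members. Of 15 such genes, 12 were in the table and 4 were tested, and none was called. Of the 4 tested, 2 were above and 2 below 0 (median log2 fold change 0.017, range -0.44 to 0.65). The 12 summed to 83 and 73.7 normalised reads in wild type, against 101 and 58.4 with overexpression, lowest in the second overexpressing library, as for the histone members. Their sum was highest in the first overexpressing library, while that of the members was highest in the second wild type library (1668 normalised reads). The 4 tested genes summed to 61.6 and 57.9 in wild type, against 86 and 36.5 with overexpression. The 2 tested genes below 0 were Rn7sk and Terc, the telomerase RNA, and values of the 2 above 0 are not given here. Rn7sk had 22.6 and 27.4 normalised reads against 26 and 12.4, and Terc 17.6 and 17.9 against 18 and 9.49. The part of this difference between libraries in the histone values was not tested.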

How the data were processed

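RNA was sequenced from 4 HT-22 libraries, 2 of wild type and 2 of Nsmce1-overexpressing cells, made with a TruSeq RNA kit and sequenced by BGISEQ-500 protocols, per the labels. HISAT, Cufflinks and the build mm9 are given in the submitters' processing notes. Read assignment and use of strand are not given in the sources used here. Values in the deposited table are the log2 of normalised reads plus 1. After undoing the log2, 100% of values in each library were whole multiples of 1 step within 0.001 read, which gave the whole reads and the depth.

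The deposited log2 values were fitted with limma 3.58.1 (R 4.3.3) with a mean-variance trend and group as the only term, over the 15540 genes with a mean of at least 10 normalised reads, with two-sided p-values adjusted by Benjamini-Hochberg at 0.05. A fold change, taken on the log2(value + 1) scale, understates the change of a low gene. On simulated data over these 15540 genes for this comparison, the fit recovered 81.8% of changes of 2-fold and 95.6% of changes of 4-fold; these genes were drawn at all levels, so the shares do not give the power for the low histone genes. Alternatives were pseudocounts of 0.1 and 5, no filter and a minimum of 50, equal sums, a common median, no trend, robust variances, limma voom on the recovered reads, the replicate number as a block, and each library left out.

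Members, gene lists and tests were chosen with earlier results of these data known. Members described with their values were the 10 with the most reads, the 10 tested with the smallest p and the highest of each class and cluster. Hist2h2ac, Hist1h2bg, Hist1h2bq and the genes named beside a pair, a marker list, a filter or a small count were chosen after their values were seen. Transcripts came from GENCODE M21 (GRCm38) by identifier and upstream sequences from RefSeq (GRCm38.p6), the first entry of a gene. The build differs from that in the notes, so coordinates are given only for the printed upstream sequences, in GRCm38.p6.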

Additional observations from a re-analysis of the deposited data

How the results depend on the processing

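No member was called under any of the 14 other settings of the test. Of 240 values of the 18 named members tested, 234 kept their sign. The other 6 came from leaving out the second overexpressing library (Hist1h1c at 0.16, Hist1h2ae at 0.068, Hist1h4i at 0.0022) or the second wild type library (Hist1h1c at 0.045, Hist1h2ai at 0.084, Hist3h2a at 0.041). With each library left out in turn, the log2 fold change ran from -0.21 to 0.16 for Hist1h1c, from -0.23 to 0.068 for Hist1h2ae, from -1.22 to 0.084 for Hist1h2ai, from -0.76 to 0.0022 for Hist1h4i and from -0.44 to 0.041 for Hist3h2a. Over all genes, 16 were called higher and 14 lower. Higher calls were 9 with voom, 32 with robust variances, 5 without trend, 7 without a filter, 10 with a pseudocount of 0.1 and 2 to 33 with 1 library left out. Lower calls were 40 with robust variances, 4 without trend, 9 without a filter and 0 to 42 with 1 library left out. The replicate number as a block gave 24 higher and 36 lower calls and 0 members; the numbers do not pair the libraries (r = 0.0068 across genes between the replicate differences of the 2 groups). The members above 0 were 9 of 44, 2 of 6 at a minimum of 50 normalised reads, 17 of 65 without a filter and 7 to 18 of 44 with 1 library left out. Their median of -0.37 was -0.053 at a minimum of 50 and ran from -0.47 to -0.19 with 1 library left out. In alternatives added after seeing the data, 19 tested members with under 50% of stretches shared had a median of -0.20, and of 23 with a mean of at least 20 normalised reads 3 were above 0. Whether anything beyond fewer genes or libraries causes these shifts was not tested. Depth limits the members: all but Hist1h1c, Hist3h2a and Hist2h2be rest on fewer than 100 reads in each library. A change of 2-fold or more in 1 of them can go uncalled.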

Other observations

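Hist1h2bq, an H2B gene with 97.3% of its 50-base stretches shared with other genes, had 19 reads (23.9 normalised reads) in the first wild type library and 0 in each of the other 3, where a count of 0 allows up to 3 reads. It was too low to test. Hist1h1a, an H1 gene with no shared stretch, was at 0 in both wild type libraries and had 2 and 5 reads with overexpression. Hist3h2ba was likewise at 0 in both and had 1 and 4 reads with overexpression. The overexpressing libraries were deeper, with 32516117 and 44602989 reads against 25787452 and 31010351 in wild type. They had a read for 21281 and 21967 genes, against 20494 and 20747. The share of all genes with reads only under overexpression was not counted.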
